A study of Mus musculus with 298 samples.

Results

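The axon guidance genes of single mouse sympathetic neurons are described here, meaning the semaphorins, ephrins, Slits and netrins and the neuropilins, plexins, Eph, Robo, Unc5 and Dcc receptors that read them. The members were chosen by name, as every table row called Sema, Plxn, Epha, Ephb, Efna, Efnb or Unc5 with any ending, with Nrp1, Nrp2, Slit1 to Slit3, Robo1 to Robo4, Ntn1, Ntn3, Ntn4 and Dcc. This gave 66 of the 16892 rows, made up of 33 ligands, 32 receptors and Unc50, which the pattern catches by its letters alone and which is not a netrin receptor.

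Cells came from thoracic ganglia of mice in which Wnt1-Cre, active in neural crest, was crossed to the R26R-Tomato reporter, so that cells of every identity come from the same cross. Both sexes were used, at postnatal days 11 to 38, and polyadenylated RNA was counted per gene in 298 cells caught singly. The celltype identifier puts 8 cells in Ach1, 8 in Ach2 (both cholinergic), 4 in Glutamatergic, 10 in Noradrenergic1, 39 in Noradrenergic2, 18 in Noradrenergic4, 23 in Noradrenergic5 and the rest of the 193 noradrenergic cells in Noradrenergic3, with 85 left Unclassified. No animal is named, so all cells of 1 sex and age were taken as 1 collection, and the 10 collections served as replicates. How the identities were assigned is not given in the sources used here. If they were drawn from these same profiles, a p-value between them is not independent evidence of a difference.

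Guidance cues steer growing axons by attraction or repulsion. Class 3 semaphorins are secreted and act through a neuropilin that binds the cue and a plexin that signals, while ephrins sit on membranes and bind Eph receptor tyrosine kinases of the matching class. Netrins act through Dcc and the Unc5 family and Slits through Robo. In sympathetic development, semaphorin signalling through neuropilins is known to shape where the ganglia form and how their axons grow, and many of these proteins persist in mature neurons, where they act at synapses and in injury.

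A cell's level is given throughout as counts per 10000 of its own total, pooled over the cells of an identity in a collection. Where a side of a comparison holds several identities, its levels pool all its cells in a collection, so larger identities weigh more. Means, ranges and overlaps rest on these pooled levels. The fitted fold changes and p-values instead weigh the identities of a side equally, so they do not measure the same difference. The least deep cell had 7225 counts, the median cell 33099 and the deepest 81589, so 1 count in a median cell is near the lowest level that can be seen. Median totals by identity were 35670 in Ach1, 28121 in Ach2, 25756 in Glutamatergic and 27729 to 43245 in the noradrenergic identities. The collection labelled P16 female had 28 counts of Y-linked genes over 5 of its 5 cells and 0 of Xist. The male collections looked the same, with Y-linked counts in 51 of 52 cells of P29 male and 36 of 36 of P38 male, and 0 of Xist. The other female collections had Xist in all or nearly all cells. By these genes the P16 cells are male, against their label, and P16 female below repeats the label alone. They include no Noradrenergic3 cell, so they are not in the sex comparison. Markers of satellite glia and Schwann cells had a median summed level of 30.4 (4.81 to 65, 14 of 15 markers with a count, Gfra3 at 0) in cholinergic cells, 31.1 (15.1 to 53.2, 14 of 15, Erbb3 at 0) in Glutamatergic cells and 6.00 (1.46 to 67.9, 15 of 15) in noradrenergic cells. Each call of a member below, cholinergic, Glutamatergic or within the noradrenergic identities, held with that level as a covariate. Endothelial markers had a median of 0.437 in cholinergic, 0.368 in Glutamatergic and 0.496 in noradrenergic cells, and no cholinergic cell was above 2.35, no Glutamatergic cell above 1.09 and no noradrenergic cell above 16.6. Fibroblast markers had a median of 0.532 in cholinergic, 1.18 in Glutamatergic and 0 in noradrenergic cells, and no cholinergic cell was above 18.8, no Glutamatergic cell above 4.92 and no noradrenergic cell above 98.9. Markers of macrophages and of smooth muscle cells had a median of 0 in each of these groups. Of the 10 endothelial markers, 3 had a count in cholinergic, 1 in Glutamatergic and 10 in noradrenergic cells. Pecam1 and Cdh5 were among those with no count in cholinergic or Glutamatergic cells. Kdr went the other way, with 5 counts in 4 of 16 cholinergic cells, at a pooled 0.092 against 0.0136 in noradrenergic cells.

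The labels were checked against marker genes. Summed markers of cholinergic neurons had a median of 81 in cholinergic cells, 2.31 in Glutamatergic cells (Chat, Slc18a3 and Gfra2 at 0) and 1.57 in noradrenergic cells. Summed markers of noradrenergic neurons had a median of 22.8 in cholinergic cells, 9.17 in Glutamatergic cells and 232 in noradrenergic cells. Markers of chromaffin and small intensely fluorescent cells had a median of 23.2 in cholinergic, 13.8 in Glutamatergic and 9.58 in noradrenergic cells, with Pnmt and Penk at 0 in cholinergic cells. An Ach1 cell of P31 female held 586 counts of Npy, a peptide gene of noradrenergic neurons, and a Glutamatergic cell of P33 female held 555. The cholinergic and Glutamatergic calls of members below also held without both cells, a check added after the data were seen.

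Of the 66 members, 62 had a count in some cell. Epha1, Epha8, Ntn1 and Sema3a had none among the 298 cells. Of the 213 cells with a named identity, 5 members had a count in at least 90%, which were the ephrin ligand Efna5, its receptor Epha5, the semaphorin receptors Nrp1 and Plxna4, and the transmembrane semaphorin Sema6d. A count was present in at least 50% of cells for 17 members, and in under 10% for 26. Enough counts for a test were present in 42 members, and the other 24 are described by counts alone.

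**Figure D1:**
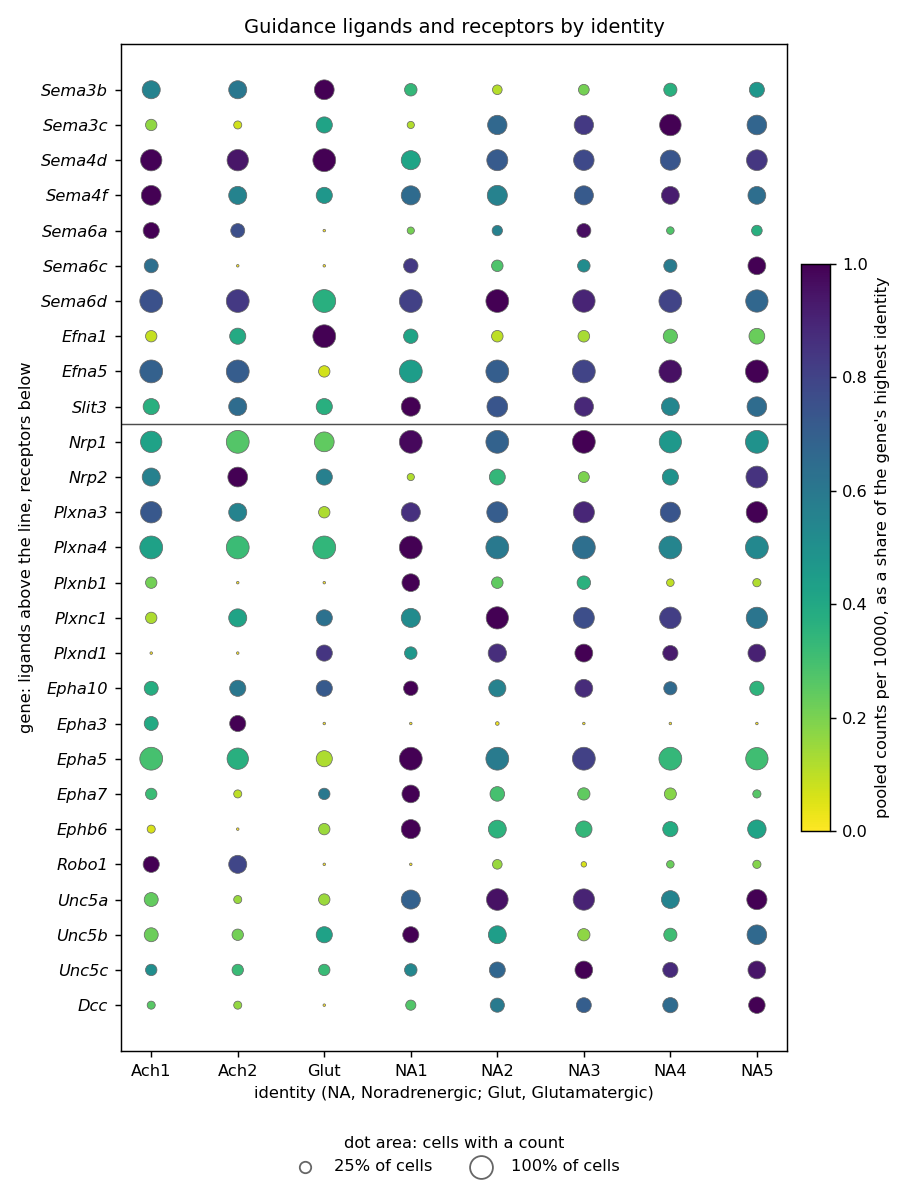
Dot plot of the 27 ligands and receptors that had a count in at least 50% of the cells of some identity of 8 or more cells. Unc50, which also met that rule, is left out. Rows are genes by family, columns are the 8 identities with cholinergic and Glutamatergic at the left, dot area is the percent of cells with a count and colour is the pooled level in counts per 10000 as a share of that gene's highest identity. Efna5 had a count in 1 of 4 Glutamatergic cells and in every cell of the cholinergic and noradrenergic identities.

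Among members found in fewer cells, Sema4d, Sema4f, Slit3 and Plxna3 were not called between cholinergic and noradrenergic cells. The membrane semaphorin Sema4d had 35 counts in 14 of 16 cholinergic cells and 366 counts in 156 of 193 noradrenergic cells. Sema4f had 23 counts in 11 of 16 cholinergic and 267 counts in 134 of 193 noradrenergic cells. Slit3, a secreted repellent read by Robo receptors, had 12 counts in 9 of 16 cholinergic and 263 counts in 140 of 193 noradrenergic cells. Plxna3, a plexin for class 3 semaphorins, had 24 counts in 12 of 16 cholinergic and 422 counts in 162 of 193 noradrenergic cells.

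Some other members were unevenly spread over identities in their pooled levels. Those named here were tested, and the main edgeR fit called none of them in any comparison of identities. Which identity was highest or lowest was not tested, and values of 0 come from identities of few cells. Sema6c ran from 0 in Ach2 and Glutamatergic to 0.206 in Noradrenergic5, and Sema6a from 0 in Glutamatergic to 0.165 in Ach1. The Eph receptors Epha10 and Epha7 were highest in Noradrenergic1, at 0.344 for Epha10 and 0.413 for Epha7, and lowest at 0.121 in Noradrenergic5 for Epha10 and 0.0417 in Ach2 for Epha7. Unc5c was highest in Noradrenergic3 at 0.257 and Dcc in Noradrenergic5 at 0.255. Sema6d, counted in 16 of 16 cholinergic and 189 of 193 noradrenergic cells, was highest in Noradrenergic2 at 1.80 and lowest in Glutamatergic at 0.662.

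Cholinergic neurons were compared with noradrenergic neurons to ask whether cells with different transmitters differ in guidance genes, as the identities imply. Of the 21 receptors tested, 7 were lower in cholinergic cells, namely the plexins Plxnd1, Plxna4 and Plxnc1, the neuropilin Nrp1, the Eph receptors Epha5 and Ephb6 and the netrin receptor Unc5a. Among the ligands the secreted semaphorin Sema3c was lower. No member was called higher. In all, 8 of the 42 members tested were called at an adjusted p under 0.05 by edgeR's quasi-likelihood test, all lower, against 4.57% of all 11555 genes called in either direction and 2.4% called lower. By role the other called member was 1 of 20 ligands. Fitted log2 fold changes were below 0 in 33 of the 42, with a median of -0.95 among the members and -0.20 over all genes. With the 3 members that had no cholinergic count (Efna2, Efnb3 and Plxnd1) placed at the bound that a floor of 3 counts allows, or at 0 where that bound was under 1-fold, the median was -0.68. Genes outside the members were not placed at such bounds, so -0.68 has no like value over all genes to be read against. With RLE size factors in place of TMM, the median over all genes moved to -0.04, the median of the members to -0.80, and 338 genes were called higher and 219 lower in place of 251 and 277. DESeq2 called 194 genes higher and 415 lower, and 8 members, all lower. When cells were thinned to 10000 counts, 29 members could be tested and 3 stayed called, Epha5, Plxna4 and Plxnd1. By family, 3 of 8 plexins, 1 of 2 neuropilins, 1 of 3 EphA, 1 of 3 EphB and 1 of 3 Unc5 receptors were called, against 1 of 2 class 3 semaphorins and none of 9 membrane semaphorins, 3 A-type ephrins, 3 B-type ephrins, 2 Slits and 1 netrin.

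Plxnd1, the plexin that transmits semaphorin 3C and 3E signals, is shown with its promoter and that of Epha5, because both genes were called lower in cholinergic cells in full and thinned counts and Epha5 was called in 5 comparisons. Windows run from 250 bases before to 50 after the start that RefSeq gives on GRCm38.p6, both on the minus strand. GENCODE places the outer end of each gene farther upstream, so both windows lie inside the GENCODE gene. Plxnd1 is read from chr6:115994956-115995255 and Epha5 from chr5:84417333-84417632. Capitals mark GATAA, the core bound by GATA factors, and TAATTA, a core of homeodomain factors, on either strand. In the Epha5 window they form 1 run, because TAATTA overlaps TTATC, the reverse complement of GATAA.
Plxnd1: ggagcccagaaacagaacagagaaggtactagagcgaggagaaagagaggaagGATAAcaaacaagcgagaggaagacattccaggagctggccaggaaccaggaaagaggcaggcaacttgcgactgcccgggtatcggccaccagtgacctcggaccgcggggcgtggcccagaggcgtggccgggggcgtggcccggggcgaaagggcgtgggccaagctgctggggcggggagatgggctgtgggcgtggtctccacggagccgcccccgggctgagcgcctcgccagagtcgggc
Epha5: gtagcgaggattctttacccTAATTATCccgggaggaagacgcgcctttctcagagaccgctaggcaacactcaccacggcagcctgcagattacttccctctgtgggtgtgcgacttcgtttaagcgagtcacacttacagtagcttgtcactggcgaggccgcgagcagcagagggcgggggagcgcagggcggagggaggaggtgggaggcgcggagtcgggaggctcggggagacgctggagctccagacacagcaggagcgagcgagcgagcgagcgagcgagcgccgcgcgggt
GATAA occurred on either strand in 3 of the 10 windows found for the 11 members called in some comparison (Epha5, Plxnd1 and Unc5b), against 25.4% of 32851 RefSeq windows of that length. TAATTA occurred in 1 of the 10 (Epha5), against 5.29%. The E-box CANNTG occurred in 4 of the 10 (Ephb6, Nrp2, Plxnc1 and Sema3c), against 72.3%. These are matches of letters and show no binding.

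Plxnd1 had no count in any of the 16 cholinergic cells, so its level was 0 in all 7 cholinergic collections, against levels of 0.127 to 0.855 with a median of 0.268 in the 10 noradrenergic collections. The groups did not overlap, and the highest noradrenergic value came from a single cell. Noradrenergic cells held 201 counts in 113 of 193 cells. Against a floor of 3 counts over the cholinergic cells, Plxnd1 was at least 4.96-fold lower there, and the fitted log2 fold change of -5.59 (SE 1.11, adjusted p = 3.06e-05 in edgeR) is no bound, since it depends on the prior count. When each cell was thinned to 10000 counts, a Plxnd1 count remained in 0 of 16 cholinergic and 43 of 192 noradrenergic cells. The call was lost when libraries of 1 cell were left out (adjusted p = 0.0692). The gene lies at chr6:115954811-115995339 in GENCODE vM21 on GRCm38, the assembly that mm10 names.

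Plxna4, the plexin that works with neuropilins in the response to class 3 semaphorins, was present in every cholinergic cell at a lower level. Its cholinergic levels were 2.33 (P16 female), 1.70 (P29 male), 0.837 (P30 female), 7.18 (P30 male), 1.87 (P31 female), 1.82 (P33 female) and 2.51 (P38 male). Its noradrenergic levels ran from 1.92 to 5.30 with a median of 3.13. The P30 male value was a single cell with 10 counts and exceeded every noradrenergic collection, so the groups overlapped. Means were 2.61 ± 2.09 in cholinergic collections (SD, n = 7) and 3.15 ± 1.04 in noradrenergic collections (SD, n = 10). Within collections it was lower in cholinergic cells in 5 of 7, and the fold change was -1.03 on the log2 scale (SE 0.22, adjusted p = 2.09e-04 in edgeR). Plxna4 lies at chr6:32144543-32588192.

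Plxnc1, the receptor of semaphorin 7A, separated the groups. Its level was 0 to 0.406 in the 7 cholinergic collections with a median of 0.186, and 0.428 to 0.879 in the 10 noradrenergic collections with a median of 0.631. The lowest noradrenergic value lay just above the highest cholinergic one, which was the P29 male collection. It had 11 counts in 7 of 16 cholinergic cells and 465 counts in 167 of 193 noradrenergic cells, and a log2 fold change of -1.64 (SE 0.47, adjusted p = 0.0148 in edgeR). The call was lost without the P30 female collection (adjusted p = 0.151), without the P38 male collection (0.12) and without libraries of 1 cell (0.532).

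Nrp1, the neuropilin that binds semaphorin 3A and 3C, had cholinergic levels of 0.291 (P16 female), 0.811 (P29 male), 1.86 (P30 female), 2.87 (P30 male), 1.28 (P31 female), 1.21 (P33 female) and 1.99 (P38 male). In the 10 noradrenergic collections it ran from 1.90 to 4.44 with a median of 3.25. Every cholinergic value lay below the noradrenergic value of its own collection, 7 of 7, although the ranges overlapped. Means were 1.47 ± 0.85 (SD, n = 7) in cholinergic and 3.14 ± 0.91 (SD, n = 10) in noradrenergic collections, with a log2 fold change of -1.09 (SE 0.24, adjusted p = 3.68e-04 in edgeR). Its partner in the family, Nrp2, stood the other way without passing the test, with 24 counts in 11 of 16 cholinergic cells and 140 counts in 74 of 193 noradrenergic cells (log2 fold change 0.70, SE 0.45, adjusted p = 0.487 in edgeR). Nrp1 is thus called lower and Nrp2 is not called, and the difference between their changes was not tested.

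Epha5, a receptor tyrosine kinase for A-type ephrins, had cholinergic levels of 2.33 (P16 female), 1.38 (P29 male), 0.744 (P30 female), 3.59 (P30 male), 0.982 (P31 female), 1.82 (P33 female) and 2.30 (P38 male), against 2.41 to 4.92 with a median of 3.34 in noradrenergic collections. It was lower in cholinergic cells in 7 of 7 collections, and 1 cholinergic value, the single P30 male cell, reached into the noradrenergic range. Means were 1.88 ± 0.97 (SD, n = 7) in cholinergic and 3.42 ± 0.89 (SD, n = 10) in noradrenergic collections, and the log2 fold change was -1.0 (SE 0.23, adjusted p = 7.09e-04 in edgeR). Epha5, at chr5:84054761-84417818, and Plxna4 were the only members whose cholinergic call held under each alternative that was run, those that leave out a collection included. Efna5, a ligand of Epha5, averaged 1.90 ± 0.99 (SD, n = 7) in cholinergic and 1.87 ± 0.53 (SD, n = 10) in noradrenergic collections, with a log2 fold change of -0.34 (SE 0.23, adjusted p = 0.499 in edgeR).

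Ephb6, an Eph receptor whose kinase is inactive, had 1 count in 16 cholinergic cells and 155 counts in 107 of 193 noradrenergic cells. Its level was 0 in 6 of 7 cholinergic collections and 0.0811 in the P29 male one, and 0.0634 to 0.663 in noradrenergic collections with a median of 0.21. The pooled level in cholinergic cells was 0.0872 of that in noradrenergic cells, with a 95% counting interval of 0.00219 to 0.493. The log2 fold change was -4.05 (SE 0.98, adjusted p = 0.00146 in edgeR), and the call was lost when libraries of 1 cell were left out (adjusted p = 0.0628). Without P29 male, which held the only cholinergic count, the fitted Ephb6 value was -5.38, which depends on the prior count and is no bound.

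Unc5a, a netrin receptor of the repulsive kind, had 6 counts in 4 of 16 cholinergic cells and 356 counts in 161 of 193 noradrenergic cells. Its level was 0 in 4 cholinergic collections (P29 male, P30 male, P33 female and P38 male), 0.0982 in P31 female, 0.146 in P16 female and 0.372 in P30 female, against 0.214 to 0.609 with a median of 0.441 in noradrenergic collections. The P30 female cells alone reached the noradrenergic range. The log2 fold change was -2.17 (SE 0.56, adjusted p = 0.00344 in edgeR), and the call was lost without the P29 male collection (adjusted p = 0.102) and without the P38 male collection (0.0591). Without P30 female the log2 fold change of Unc5a was -4.29 (adjusted p = 3.53e-04). The related Unc5b and Unc5c and the netrin receptor Dcc did not pass, at fitted log2 fold changes of -1.06 for Unc5b, -1.23 for Unc5c and -1.69 for Dcc. Without both Npy-rich cells Dcc was called too, with a log2 fold change of -3.39 (adjusted p = 0.0362 in edgeR), which made 9 members, all lower.

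Sema3c, a secreted cue that binds Nrp1 and Nrp2, was the only ligand called. Its level was 0 in the cholinergic cells of P16 female, P29 male, P30 male and P31 female, 0.0931 in P30 female, 0.105 in P38 male and 0.605 in P33 female, which was 1 cell with 2 counts. In noradrenergic collections it ran from 0 to 0.744 with a median of 0.395, the 0 being the 2 cells of P30 male. It was lower in cholinergic cells in 5 of 7 collections, with 4 counts in 3 of 16 cells against 331 counts in 136 of 193 cells and a log2 fold change of -2.36 (SE 0.73, adjusted p = 0.029 in edgeR). The call was lost without P29 male (adjusted p = 0.187), without P30 female (0.107), without P31 female (1) and without libraries of 1 cell (0.0894). The log2 fold change of Sema3c was -1.53 without P31 female, -2.98 without P33 female and -3.78 without P38 male.

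**Figure D2:**
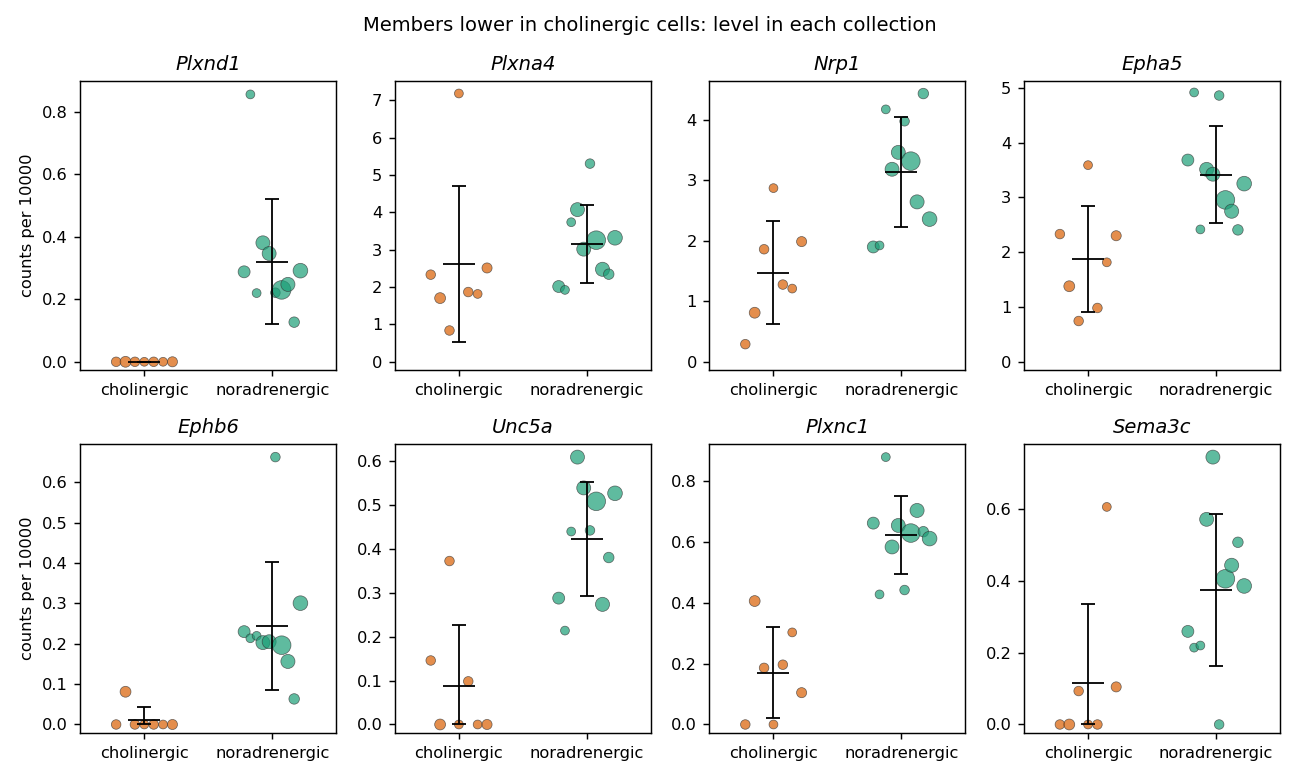
Levels of the 8 members called lower in cholinergic cells, in counts per 10000, for each collection. Cholinergic collections are on the left and noradrenergic collections on the right of each panel, point size grows with the number of cells, and the bar shows the mean with its SD. Plxnd1 lies at 0 in all 7 cholinergic collections and Plxnc1 separates the groups, while in Plxna4 a single P30 male cell at 7.18 stands above all others.

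Ligand and receptor counts in the same cell give another view. Efna5 and Epha5 were both counted in 15 of 16 cholinergic and 192 of 193 noradrenergic cells, and Sema6d with Plxna4 in 16 of 16 cholinergic and 189 of 193 noradrenergic cells. Sema3c and Plxnd1 were both counted in 0 of 16 cholinergic and 83 of 193 noradrenergic cells, and Sema3c with Nrp1 in 3 of 16 cholinergic and 136 of 193 noradrenergic cells. Slit3 and Robo1 went the other way, both counted in 4 of 16 cholinergic and 16 of 193 noradrenergic cells. Each of these shares is a description and moves with the levels already given.

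A few members stood higher in cholinergic cells without a call. Robo1, a Slit receptor, had 13 counts in 9 of 16 cholinergic cells and 21 counts in 18 of 193 noradrenergic cells. Its level was 0.729 (P16 female), 0.325 (P29 male), 0.279 (P30 female) and 0.718 (P30 male) in cholinergic cells and 0 in the P31 female, P33 female and P38 male cells, against 0 to 0.0641 in noradrenergic collections. In all, 4 cholinergic collections were thus above every noradrenergic one and 3 had none. The log2 fold change was 2.14 (SE 0.73, adjusted p = 0.0657 in edgeR), and Robo1 passed with RLE size factors (0.0364) and without the collection block (6.25e-04), while its adjusted p was 0.283 with the glial level as covariate. Epha3, an ephrin-A receptor, was too rare to be tested, with 9 counts in 7 of 16 cholinergic cells and 1 count in 193 noradrenergic cells. Its cholinergic level was 0.0811 at P29 male, 0.0982 at P31 female, 0.291 at P16 female, 0.418 at P38 male and 0.718 at P30 male, and 0 at P30 female and P33 female. These Epha3 values are a description, with no test. Sema3b, a secreted semaphorin, had 13 counts in 10 of 16 cholinergic and 71 counts in 49 of 193 noradrenergic cells (log2 fold change 0.90, adjusted p = 0.447 in edgeR).

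**Figure D3:**
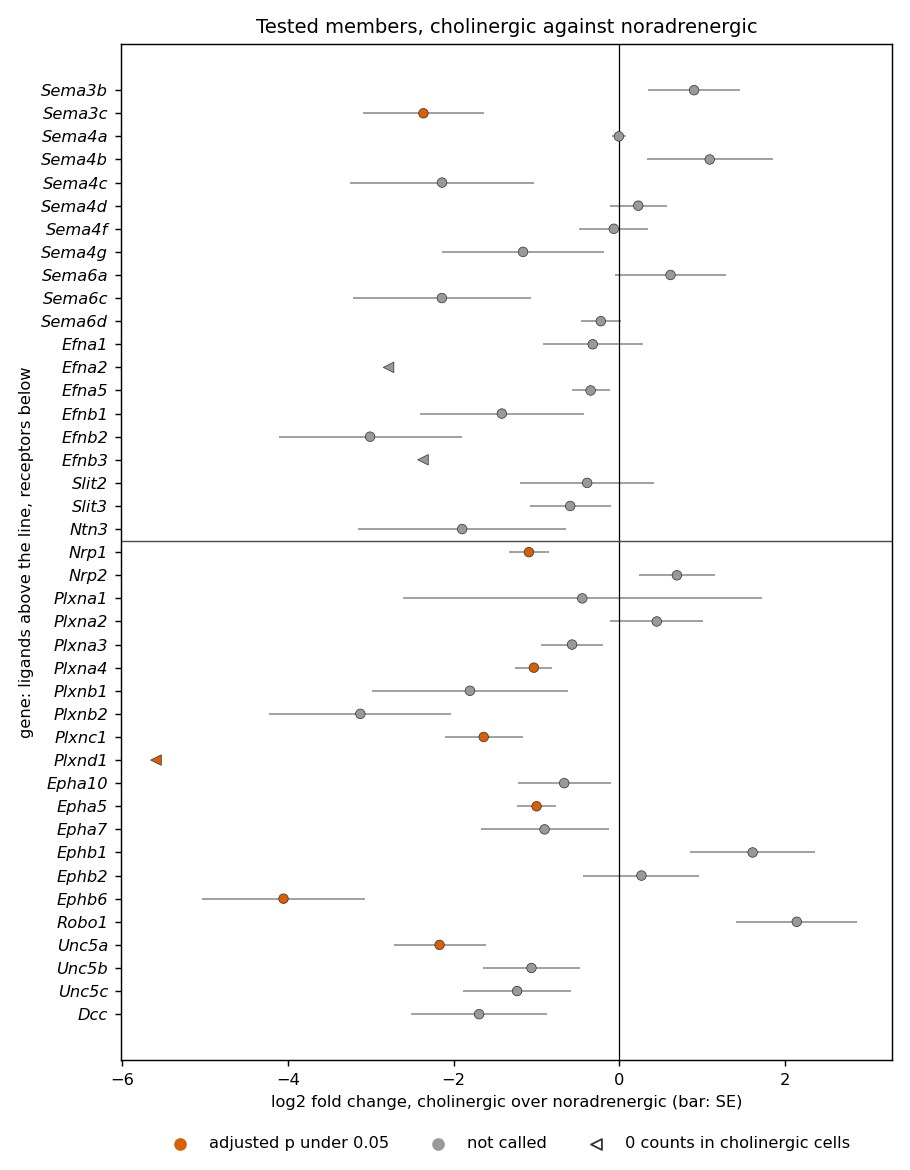
Log2 fold changes of the tested ligands (above the line) and receptors (below it), cholinergic over noradrenergic, with bars of 1 SE. Orange points passed an adjusted p under 0.05, and triangles mark members with 0 counts in cholinergic cells, whose fitted value is no bound. The 8 called members all lie left of 0, and Robo1 and Ephb1 lie farthest to the right without a call.

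The 2 cholinergic identities were set against each other to ask whether they differ in these genes. Ach1 against Ach2 gave no called member among 42, against 0.138% of all genes called by edgeR (0.0433% higher and 0.0952% lower), and 1 member, Efnb1, had an unadjusted p under 0.05. Efnb1, an ephrin-B ligand, had 0 counts in 8 Ach1 cells and 3 counts in 2 of 8 Ach2 cells. DESeq2 also called 0 members. Epha5 was at a pooled 1.38 in Ach1 and 1.75 in Ach2, Nrp1 at 1.58 in Ach1 and 1.00 in Ach2, and Plxna4 at 2.17 in Ach1 and 1.62 in Ach2.

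The smallest named identity, Glutamatergic, was set against all noradrenergic cells. They carried transcripts of sensory neurons, with the summed level of 11 sensory markers at 94.9 to 229, against 2.42 to 14.8 in cholinergic and 0.811 to 21.8 in noradrenergic cells. Efna5, Epha5 and Nrp1 were lower in the Glutamatergic cells. These 3 of 42 members were called by edgeR, all lower, against 2.63% of all genes in either direction and 1.01% called lower. Fitted values were below 0 in 33 of 42, with a median of -1.67 among members and -0.39 over all genes. However, 16 members had no Glutamatergic count, and for each the bound that a floor of 3 counts allows was under 1-fold. Their fitted values are no bounds, and placing them at 0 fixes the median of the members at 0. Neither median of the members therefore measures a shift. With RLE size factors the median over all genes was 0.02 and the calls over all genes were 291 higher and 46 lower, in place of 187 and 117. DESeq2 called 37 genes higher and 277 lower, and 5 members.

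Efna5, counted in each of the 193 noradrenergic cells, had 2 counts in 4 Glutamatergic cells. Its Glutamatergic level was 0 in P29 male (2 cells), 0 in P31 female (1 cell) and 0.391 in P33 female (1 cell), against 0.641 to 2.45 with a median of 2.0 in noradrenergic collections. The only Glutamatergic cell with Efna5 counts was the one with 555 counts of Npy and 130 of Th. The groups did not overlap, and the noradrenergic low of 0.641 was a single P16 cell. The pooled level in Glutamatergic cells was 0.0835 of that in noradrenergic cells (95% counting interval 0.0101 to 0.302), and the log2 fold change was -3.75 (SE 0.72, adjusted p = 3.84e-05 in edgeR). This call held under every alternative that was run, at fitted log2 fold changes of -3.12 without P29 male and -8.22 without P33 female. Since P33 female held both Efna5 counts, the value of -8.22 depends on the prior count and is no bound. Efna5 lies at chr17:62602957-62881317.

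Epha5 had 7 counts in 2 of 4 Glutamatergic cells, at levels of 0 (P29 male), 0.691 (P31 female) and 0.978 (P33 female), against 2.41 to 4.92 in noradrenergic collections. Nrp1 had 11 counts in 3 of 4 cells, at 1.22 (P29 male), 0 (P31 female) and 1.17 (P33 female), against 1.90 to 4.44. Neither gene's Glutamatergic range reached the noradrenergic one. Epha5 had a log2 fold change of -2.41 (SE 0.53, adjusted p = 5.45e-04 in edgeR), and Nrp1 of -1.74 (SE 0.47, adjusted p = 0.0127 in edgeR). Both calls were lost without P29 male, at adjusted p of 0.164 for Epha5 and 0.0814 for Nrp1, and that of Epha5 also with thinned counts (0.182). Without P33 female the log2 fold change of Epha5 was -3.54. The Nrp1 call was also lost without P31 female (0.474), with RLE size factors (0.0825), with the filterByExpr filter (0.119) and without libraries of 1 cell (0.454).

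Other members shared the low values without a call. Sema6d was at 0.345 to 0.783 in the 3 Glutamatergic collections and 0.887 to 2.20 in the noradrenergic ones (log2 fold change -1.41, SE 0.53, adjusted p = 0.168 in edgeR). Plxna4 was at 0.978 to 2.69 in Glutamatergic and 1.92 to 5.30 in noradrenergic collections (log2 fold change -1.18, SE 0.40, adjusted p = 0.092 in edgeR). DESeq2 called both, with adjusted p of 0.0368 for Sema6d and 0.0214 for Plxna4. Efna1, another ephrin-A ligand, was higher in each Glutamatergic collection, at 1.47 (P29 male), 0.345 (P31 female) and 0.391 (P33 female) against 0 to 0.234, with 9 counts over 4 of 4 cells (log2 fold change 1.52, SE 0.69, adjusted p = 0.319 in edgeR). The groups did not overlap in Efna1, but the test did not pass. Robo2, a Slit receptor named here after its values were seen, had 8 counts in 3 of 4 Glutamatergic cells and 8 counts in 7 of 193 noradrenergic cells. Its levels were 0.245 (P29 male), 1.04 (P31 female) and 0.783 (P33 female) against 0 to 0.0288. It was too rare for the test, and its values are a description.

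**Figure D4:**
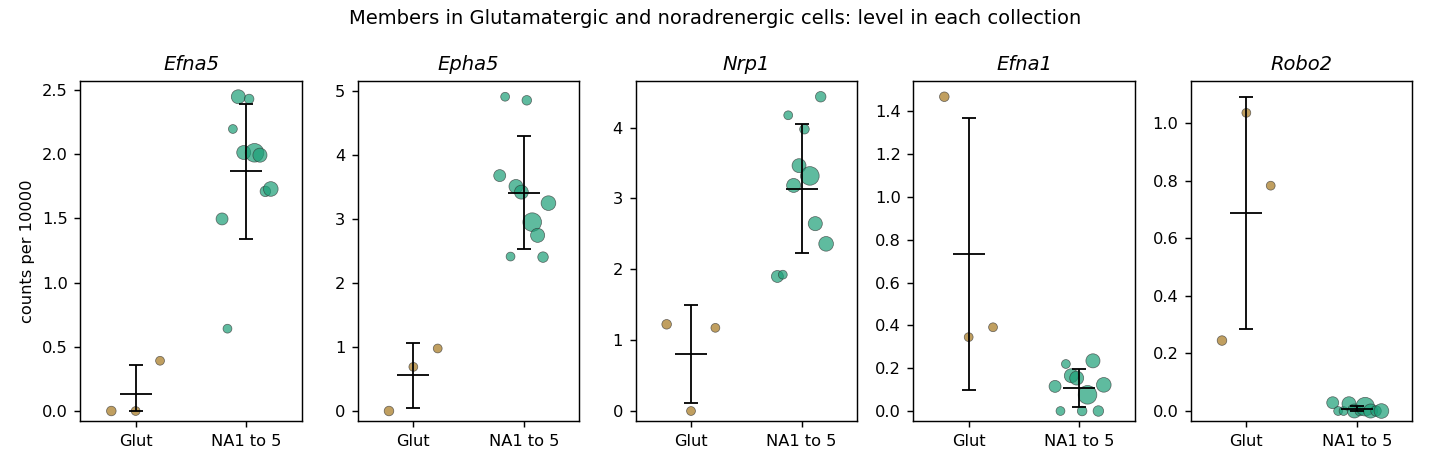
Levels of Efna5, Epha5, Nrp1, Efna1 and Robo2 in counts per 10000, with the 3 Glutamatergic collections left and the 10 noradrenergic collections right, point size by number of cells and bars for the mean and SD. Efna5, Epha5 and Nrp1 lie below every noradrenergic collection, and Efna1 and Robo2 lie above.

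The 5 noradrenergic identities were each set against the other 4. Epha5 and Nrp1, together with Efna5, Unc5b and Nrp2, made up the calls. The comparisons share their cells, since each identity is also among the cells that the others were set against, so their results are not independent of each other. In Noradrenergic1 edgeR called 1 of 42 members, lower, against 1.39% of all genes in either direction and 0.528% lower. Noradrenergic3 had 3 called, 2 higher and 1 lower, against 1.74% of all genes in either direction, 1.46% higher and 0.277% lower. Noradrenergic4 had 1 called, lower, against 1.25% in either direction and 0.303% lower. Noradrenergic5 had 2 called, 1 higher and 1 lower, against 1.41% in either direction, 0.788% higher and 0.623% lower. In Noradrenergic2 edgeR called 0 members, against 1.64% of all genes (1.36% higher and 0.277% lower), with 5 at an unadjusted p under 0.05, and DESeq2 called 0 as well. When cells were thinned to 10000 counts, Epha5 in Noradrenergic3 was the only one of these calls that held.

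Epha5 ran from highest to lowest in Noradrenergic1, Noradrenergic3, Noradrenergic2, Noradrenergic4 and Noradrenergic5, at pooled levels of 4.72, 3.80, 2.77, 1.57 and 1.44. By collection it lay at 4.33 to 5.38 in Noradrenergic1, 2.57 to 4.94 in Noradrenergic3, 1.68 to 4.92 in Noradrenergic2, 1.18 to 2.03 in Noradrenergic4 and 0.727 to 2.92 in Noradrenergic5. Neighbours in this order overlapped in each case. Noradrenergic4 did not overlap Noradrenergic1 or Noradrenergic3. The level in Noradrenergic4 and Noradrenergic5 was close to the pooled 1.38 of Ach1 and 1.75 of Ach2, which were not tested against them.

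In Noradrenergic3, the largest identity, Epha5 was 4.94 in P11 female, 4.23 in P29 male, 4.28 in P30 female, 3.64 in P31 female, 3.03 in P33 female, 2.57 in P34 female and 3.77 in P38 male. The other 4 identities together gave 1.32 to 4.92 with a median of 2.48, and Noradrenergic3 was higher in 7 of 7 shared collections. Means were 3.78 ± 0.80 (SD, n = 7) in Noradrenergic3 and 2.73 ± 1.21 (SD, n = 10) in the others, with a log2 fold change of 0.87 (SE 0.18, adjusted p = 2.26e-04 in edgeR), which held under every alternative that was run. Nrp1 was likewise higher, at 2.25 to 4.29 with a median of 3.62 in Noradrenergic3 and 1.24 to 4.89 with a median of 2.52 in the others. It was higher in 6 of 7 shared collections (log2 fold change 0.67, SE 0.18, adjusted p = 0.0106 in edgeR). The Nrp1 call was lost with filterByExpr (adjusted p = 0.136), without the collection block (0.0568), and without P29 male (0.062), P31 female (0.0781) or P38 male (0.232). Genes on the marker lists of other cell types were also called higher in Noradrenergic3. These were 2 of 5 tested for fibroblasts (Col3a1 and Lum), 2 of 4 for smooth muscle cells and pericytes (Rgs5 and Myh11) and 1 of 3 for endothelial cells (Flt1). On the glial list 1 of 14 was called (Gfra3), while the list had a median log2 fold change of -0.02, against 0.16 over all genes. Gfra3 had no count in cholinergic cells, whose summed glial markers had a median of 30.4, against 6.00 in noradrenergic cells. Per Noradrenergic3 cell, fibroblast markers had a median of 0 and reached 98.9, smooth muscle markers had a median of 0.238 and reached 15.9, and endothelial markers had a median of 0.507 and reached 16.6. Dpt was at 0 among the fibroblast markers and Cnn1 among those of smooth muscle. The part of the non-glial markers in the Epha5, Nrp1 and Unc5b calls of Noradrenergic3 was not tested.

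Unc5b, a netrin receptor also used in vessels, was low throughout Noradrenergic3, at 0.0781 to 0.132 with a median of 0.0981 over 7 collections. The other 4 identities gave 0 to 0.663 with a median of 0.34. It had 38 counts in 30 Noradrenergic3 cells, 29.1% of that identity, and 106 counts in 52 of 90 other cells, and was lower in 6 of 7 shared collections (log2 fold change -1.48, SE 0.36, adjusted p = 0.00535 in edgeR). After thinning, a count remained in 12 Noradrenergic3 cells (11.7%) and 23 of 89 other cells. The call was lost without P31 female (adjusted p = 0.15) and without P38 male (0.158).

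Noradrenergic1 carried less Efna5. Its levels were 0.897 (P29 male), 1.77 (P30 female), 2.43 (P30 male), 0.619 (P31 female) and 1.08 (P38 male), against 0.641 to 2.57 with a median of 1.99 in the other identities. The ranges overlapped, but Noradrenergic1 was lower in 4 of 4 shared collections, with a log2 fold change of -1.31 (SE 0.34, adjusted p = 0.014 in edgeR). The call was lost without P29 male (adjusted p = 0.29), P31 female (0.308) or P38 male (0.0625), and without the collection block (0.107). The only macrophage marker tested, Cx3cr1, was called higher in Noradrenergic1, and the other 8 macrophage markers were at 0 there. Its part in the Efna5 call was not tested. Epha5 was higher in 4 of 4 shared collections without passing (log2 fold change 0.83, SE 0.26, adjusted p = 0.0753 in edgeR). It passed with RLE size factors, at a log2 fold change of 1.00 (adjusted p = 0.0033). Sema3c was counted in 1 of 10 Noradrenergic1 cells and 135 of 183 others, at 0 to 0.177 in Noradrenergic1 and 0.214 to 0.755 in the others (log2 fold change -2.60, SE 0.81, adjusted p = 0.0779 in edgeR). Plxnb1, a receptor of Sema4d, was at 0 to 0.886 in Noradrenergic1 and 0 to 0.144 in the others (log2 fold change 2.38, SE 0.74, adjusted p = 0.0801 in edgeR).

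Noradrenergic4 and Noradrenergic5 carried less Epha5. In Noradrenergic4 the levels were 1.18 (P11 female), 2.03 (P30 female), 1.37 (P31 female), 1.83 (P33 female) and 1.56 (P38 male), against 2.41 to 4.92 in the other identities, so the groups did not overlap. The log2 fold change was -0.86 (SE 0.25, adjusted p = 0.0487 in edgeR). That call lies at the threshold and was lost without P11 female (0.183), P16 female (0.0516), P29 male (0.119), P31 female (0.211), P33 female (0.08) or P38 male (0.301), and without the block (0.0804). In Noradrenergic5 Epha5 was at 0.727 to 2.92 with a median of 1.37, against 2.42 to 4.92 with a median of 3.42, and was lower in 6 of 6 shared collections (log2 fold change -0.95, SE 0.26, adjusted p = 0.0208 in edgeR). It was lost without P11 female (0.0559), P30 female (0.0632), P31 female (0.307) or P33 female (0.22).

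Nrp2, the neuropilin that prefers semaphorin 3F, was higher in Noradrenergic5. Its levels there were 0.638 (P11 female), 0.769 (P29 male), 0.727 (P30 female), 0.411 (P31 female), 0.781 (P33 female) and 0.245 (P34 female), against 0 to 0.439 with a median of 0.115 in the other identities. Noradrenergic5 was higher in 6 of 6 shared collections, and only the P31 and P34 female values lay within the range of the others. It was counted in 21 of 23 Noradrenergic5 cells and 53 of 170 other cells, with a log2 fold change of 2.40 (SE 0.45, adjusted p = 4.88e-05 in edgeR). The call held without each collection in turn, at log2 fold changes of 2.18 to 3.38, the highest without P38 male, and was lost when cells were thinned to 10000 counts, which left an Nrp2 count in 7 of 22 Noradrenergic5 cells and 20 of 170 others. Fibroblast markers moved with this comparison, with 3 of 5 tested called higher in Noradrenergic5 (Lum, Col1a1 and Col1a2) and a median log2 fold change of 3.14 over the list. Their summed level per Noradrenergic5 cell had a median of 0.245 and a highest value of 20.2, with 7 of 8 markers counted and Dpt at 0. Their part in the Nrp2 and Epha5 calls was not tested. Nrp2 lies at chr1:62703317-62818692.

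Efna5 ran the other way from Epha5 at the ends of the order, at a pooled 1.10 in Noradrenergic1 and 1.74 in Noradrenergic2, then 1.98 for Noradrenergic3, 2.37 for Noradrenergic4 and 2.47 for Noradrenergic5. Noradrenergic4 and Noradrenergic5 were not called for Efna5 (edgeR adjusted p = 0.216 and 0.441). Both genes come from the same libraries, and 5 identities are too few for a relation between them to be tested.

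**Figure D5:**
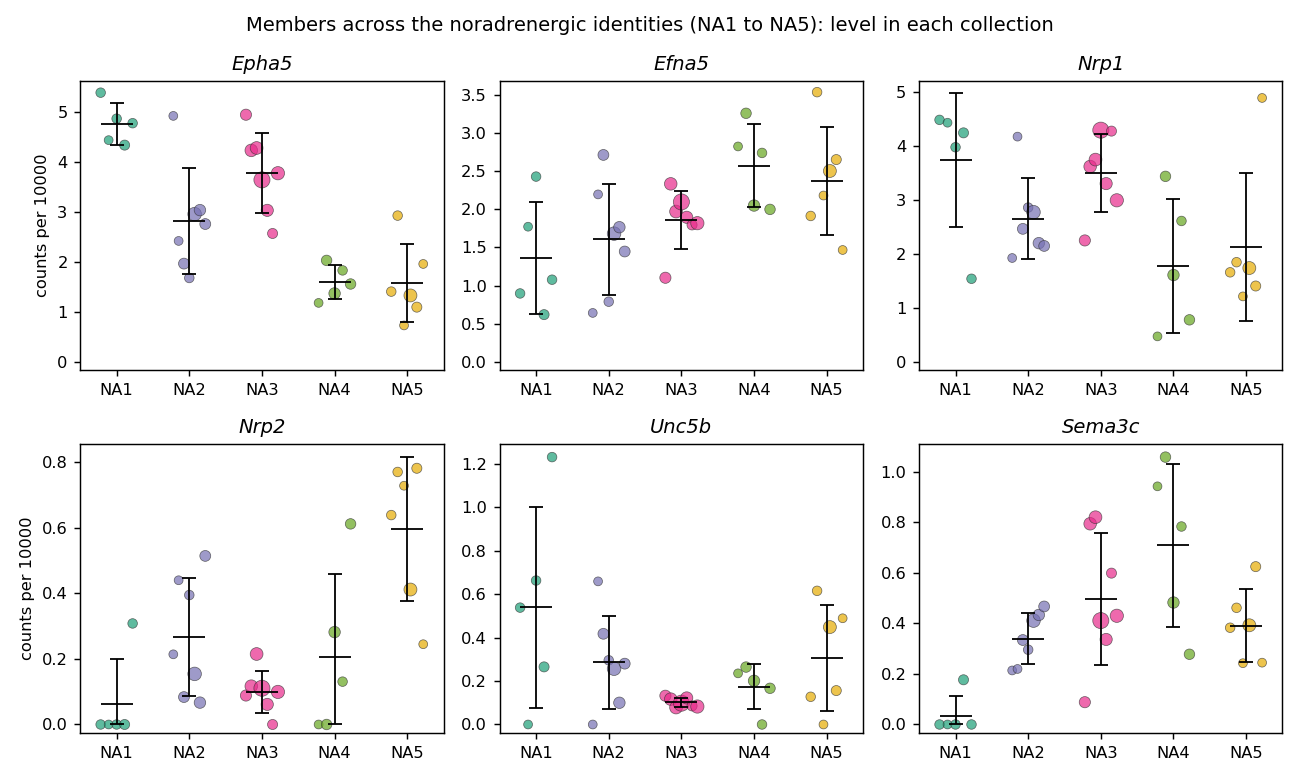
Levels of Epha5, Efna5, Nrp1, Nrp2, Unc5b and Sema3c in counts per 10000 in Noradrenergic1 to Noradrenergic5, 1 point per collection with its size by number of cells and bars for the mean and SD. Epha5 is high in Noradrenergic1 and Noradrenergic3 and low in Noradrenergic4 and Noradrenergic5, and Nrp2 is highest in Noradrenergic5.

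Sex was compared within Noradrenergic3, the largest identity, and was not tested in the others. Of 36 members tested, edgeR called 0 between 2 male and 5 female collections, against 0.0296% of 10141 genes (0.00986% higher and 0.0197% lower in males), 0 had an unadjusted p under 0.05, and DESeq2 called 0. Epha5 averaged 4.00 ± 0.32 in male (SD, n = 2) and 3.69 ± 0.95 in female collections (SD, n = 5), and Nrp1 averaged 3.31 ± 0.44 in male and 3.57 ± 0.85 in female collections. Plxna4 averaged 3.41 ± 0.29 in male and 2.68 ± 0.64 in female collections. Age cannot be told apart from collection. The youngest Noradrenergic3 collection, P11 female with 6 cells, had the highest Epha5 (4.94) and Slit2 (0.441) and the lowest Nrp1 (2.25), Efna5 (1.10) and Sema3c (0.0882) of the 7, as values of 1 collection with no test. Those named are a selection, since P11 female was also highest for others, among them Efna1 (0.176), Ephb6 (0.265) and Plxnc1 (0.794). Some collection must be highest and some lowest for each member, so these places show no effect of age.

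Lists of guidance genes outside the named families moved in both directions. Of 58 intracellular partners of guidance receptors, 54 were tested, and in cholinergic cells edgeR called 3 higher and 2 lower, against 2.17% of all genes higher and 2.4% lower, and the list median was -0.26 on the log2 scale against -0.20 over all genes. Chn2, a Rac regulator related to the ephrin effector Chn1, was higher at 4.53 on the log2 scale (SE 0.36, adjusted p = 9.53e-33 in edgeR), as were the exchange factors Vav3 and Kalrn, at 2.58 and 1.20. Dpysl2, which carries semaphorin signals to microtubules, was lower at -0.66 (SE 0.20, adjusted p = 0.0221 in edgeR), as was Arhgef28 at -1.58. In Glutamatergic cells 2 partners rose, Mical1 (3.06) and Sh3kbp1 (2.86), and Arhgef28 fell (-1.59), against 1.62% of all genes higher and 1.01% lower, with a list median of -0.13 against -0.39. Among noradrenergic identities 1 partner of 54 was called, a share near the 1.74% of all genes called in that comparison. It was Chn2 in Noradrenergic3, at -2.84 (SE 0.66, adjusted p = 0.00239 in edgeR).

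The other list held 57 further cues, receptors and adhesion partners, 52 of them in the table and 37 tested. In cholinergic cells 4 were higher, the contactin Cntn2 (2.86), the glypican Gpc1 (2.09), endothelin Edn3 (4.01) and the neurotrophic receptor Ret (1.55), and those lower included Cntn1 (-3.47), Lingo1 (-3.06) and the L1 family members Chl1 (-1.04) and Nrcam (-0.78), all as log2 fold changes called by edgeR, where 2.17% of all genes were called higher and 2.4% lower. The list median was -0.18 against -0.20 over all genes. In Glutamatergic cells 4 rose, Bdnf (6.04), Flrt3 (3.64), Ptprd (3.43) and Cntn2 (2.49), and 3 fell, Cntn1 (-2.31), Nrcam (-2.01) and Chl1 (-1.67), against 1.62% of all genes higher and 1.01% lower. Noradrenergic4 had 6 called higher, Edn3 (3.62), Rtn4rl1 (1.46), Ret (1.40), Flrt1 (1.20), Ngfr (1.01) and Rtn4 (0.87), against 0.952% of all genes. Noradrenergic1 had 2 lower (Cntn1 at -1.30 and Ret at -1.43), against 0.528% of all genes. Noradrenergic2 had 3 higher (Nell2 at 2.19, Cntn2 at 1.79 and Ednra at 1.38), against 1.36%. Noradrenergic3 had 2 higher (Flrt1 at 1.20 and Cntn1 at 0.74), against 1.46%, and Noradrenergic5 had 1 higher (Edn3 at 2.86), against 0.788%.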

How the data were processed

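Whole-number counts per gene in each of 298 single cells were used as deposited by the authors, and per the labels the libraries were made from polyadenylated RNA on a microfluidic chip. The build was mm10, per the submitters' processing notes. The aligner, the annotation and whether molecules or reads were counted are not given in the sources used here. Capture sites were inspected by eye, per the labels' protocols, and no doublet caller was run. No pair of cells had identical columns (0 found), and 0 columns of values were unmapped. Cell totals ran from 7225 to 81589. Counting intervals are exact, at 95%, and cover counting error only.

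Counts were summed per identity and collection into 44 libraries of 1 to 43 cells, leaving out Unclassified cells. Genes reaching 20 counts over these libraries and seen in 3 or more of them were tested with edgeR 4.0.16 (R 4.3.3), by its two-sided quasi-likelihood test with TMM scaling, terms for identity and collection, and Benjamini-Hochberg adjustment over all 11555 genes at 0.05. Each comparison of identities took the unweighted mean of the identity terms on each side, whatever their numbers of cells. The SE is the absolute log2 fold change divided by the square root of the F statistic. Sex was tested in Noradrenergic3 collections of at least 3 cells. Between identities, p-values measure the spread of libraries that is left after the identity and collection terms. In libraries of 1 cell that spread includes differences between cells. In the sex test they measure the spread between collections. The spread between animals is not measured, since no animals are named. The test was checked on simulated data with a common spread for all genes and no effect of collection. Only genes with many counts were changed there, so the check does not cover members with few counts.

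Libraries of the same collection deviated together, at correlations of 0.191 to 0.285 in 4 pairs, against a mean of -0.05 over 20 pairs of different collections, so collection is a block. Cells were also thinned to 10000 counts each, which left out 1 named cell. Alternatives were RLE scaling, filterByExpr, no filter beyond 1 count, DESeq2 1.42.0, no block, chip as block, libraries of at least 2 cells, the glial level as covariate, thinning and leaving out each collection.

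The members and lists were chosen with earlier results of these data known. Members named with values are those called in a comparison, those with a count in at least 50% of cells of an identity of at least 8 cells, and, by name alone, those with no count. Efnb1, Robo2, Slit2, Plxnb2 and Sema7a fall outside that rule and were named after their values were seen. The lists were markers of glia, endothelial cells, fibroblasts, macrophages, smooth muscle, sensory, noradrenergic, cholinergic and chromaffin cells, and the guidance lists. Promoter windows are from RefSeq (GRCm38.p6), where 56 of the 66 members matched, and gene coordinates from GENCODE vM21 (GRCm38). A result for a gene of the list of other guidance cues is not reported here.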

Additional observations from a re-analysis of the deposited data

Results flagged for a closer look

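In all, 7 single values stood far from the rest of their group among the 30 groups of collections examined. How many chance would give is not known here, since levels rest on few counts and the groups share cells. A single value above collections that all lie at 0 is always flagged. Most of the flagged values rest on few cells. Ephb6 was at 0.0811 counts per 10000 in the cholinergic cells of P29 male, from 1 count in 5 cells, where the other 6 cholinergic collections had 0. Plxna4 was at 7.18 in the single cholinergic cell of P30 male, next to 2.51. Sema3c was at 0.605 in the single cholinergic cell of P33 female, from 2 counts, next to 0.105. Unc5a was at 0.372 in 2 cholinergic cells of P30 female, from 4 counts, next to 0.146. In noradrenergic cells, Ephb6 was at 0.663 in 2 cells of P30 male, from 3 counts, next to 0.301. In the single noradrenergic cell of P16, Plxnd1 was at 0.855, from 4 counts and next to 0.381, and Efna5 was at 0.641, from 3 counts and next to 1.5.

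In the 85 Unclassified cells, which enter no comparison, 8 members had a pooled level above that of every named identity, and in 3 of them, with more than 3 counts, the lower bound of the 95% counting interval was above it too. The highest named level was taken as it stands, without its own counting error, and all 66 members were looked through in this way. Plxnb2, a receptor of class 4 semaphorins, was at 0.251 from 49 counts, against at most 0.158. Sema7a, the ligand of Plxnc1, was at 0.0461 from 9 counts, against at most 0.0026. Unc5c was at 0.338 from 66 counts, against at most 0.257. The summed glial markers had a median of 26.3 in Unclassified cells and 6.00 in noradrenergic cells, and their part in these levels was not tested.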

How the results depend on the processing

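Over 18 gene results, 295 of 346 values under an alternative kept their side of the threshold, 51 lost it and 0 reversed. Those of Epha5 and Plxna4 in cholinergic cells, Efna5 in Glutamatergic cells and Epha5 in Noradrenergic3 held throughout. Losses were most frequent with thinned counts (12), and the cause was not tested. Members that could not be tested after thinning are not counted among these losses. In cholinergic cells 8 members were called, 3 with filterByExpr (5 members tested), 4 with libraries of at least 2 cells and 3 with thinned counts. In Glutamatergic cells 3 were called, 5 with DESeq2 and 1 to 3 when a collection was left out. In Noradrenergic1 1 was called, 3 with RLE, 2 each with filterByExpr, without the block, with the chip as block and with libraries of at least 2 cells, 0 with thinned counts and 0 to 3 when a collection was left out. In Noradrenergic3 3 were called, 1 with filterByExpr, 1 with thinned counts and 1 to 3 when a collection was left out. In Noradrenergic4 1 was called, 0 without the block, 2 with the chip as block, 0 with thinned counts and 0 to 1 when a collection was left out. In Noradrenergic5 2 were called, 1 with filterByExpr, 0 with thinned counts and 1 to 2 when a collection was left out. Without the collection as replicate block, 10 members were called in cholinergic cells, 3 in Glutamatergic cells and 2 in Noradrenergic3. Cholinergic and Glutamatergic libraries hold few cells, and members near 1 count per cell cannot be ranked at this depth.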

Other observations

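The 85 Unclassified cells carried the abundant members at levels within the range of the noradrenergic identities. Epha5 was at 3.52 counts per 10000 (95% counting interval 3.26 to 3.79), Nrp1 at 3.43 (3.17 to 3.70) and Efna5 at 2.15 (1.95 to 2.37). Nrp2 was at 0.189, and Epha3 had no count. Efna5 and Epha5 were both counted in 80 of the 85 cells.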
